A study of Mus musculus with 16 samples.

Results

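A set of 281 genomic positions was examined at which a Sox2 ChIP-seq summit was called on day 5 in every one of 3 reprogramming cocktails and in none of the 3 matching day 1 libraries. The summits (the single bases of highest signal within a peak) of the 3 Sox2 day 5 libraries were joined wherever the next summit lay within 100 bp, which gave 26095 merged sites on chromosomes 1 to 19, X and Y. Of these, 830 sites, 3.18% of all, held a summit of all 3 libraries, and 22151 sites, 84.9% of all, had no Sox2 day 1 summit within 100 bp. The 281 positions meet both criteria and are called new common sites here. They were selected on the presence of called summits in the 6 Sox2 libraries, so their Sox2 calls and scores are given only as a description.

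The libraries came from OG2 MEFs, which are fibroblasts of mouse embryos with a green fluorescent reporter of Oct4, transduced with retroviruses for Sox2, Klf4 and a POU factor and cultured in the chemically defined medium iCD1. The cocktails with Sox2 libraries were Oct4-SK (wild-type Oct4), Oct6-SK (wild-type Oct6, a neural POU factor) and Oct4defSox2-SK (an Oct4 whose interface mutations disrupt its DNA-dependent dimer with Sox2), each sampled on day 1 and day 5. POU factors were profiled for Oct4 on days 1, 5 and 7, for Oct4defSox2 on days 1 and 5, and, on day 1 by their titles, for Oct4 S151M and Oct6 M151S, which carry each other's residue at 1 position, each in its own cocktail with Sox2 and Klf4 (another label of the Oct6 M151S library gives day 2). The paper also profiled wild-type Oct6 on days 1 and 5, but no such library was used here. A site without a POU summit below may thus still bind wild-type Oct6. Each of the 13 ChIP libraries is the only one of its condition, so there was no replicate error: every interval below is a 95% interval that covers counting error over sites and nothing else, was not adjusted for the number of comparisons, and compares libraries rather than conditions. The cells were profiled in bulk, so binding in fewer cells and weaker binding per cell cannot be told apart, and ChIP-seq holds no expression markers with which to check the cell type.

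Sox2 is a transcription factor of the HMG-box family that binds short CATTGT-like or CTTTGT-like elements in the minor groove and bends DNA. In pluripotent cells it pairs with Oct4 on a composite SoxOct element, in which a Sox site lies directly beside a POU site, whereas POU factors can also bind as dimers on the palindromic MORE element. In reprogramming fibroblasts, Sox2 and the other factors first meet a somatic chromatin landscape rich in enhancers bound by AP-1, and their binding is redistributed on the way to pluripotency.

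Windows of 201 bp around the centres of 8 new common sites are shown, since they carry the sequence features on which the results turn. They are read from the mm10 genome, and capitals mark each Sox core (CATTGT or CTTTGT, or ACAATG or ACAAAG where the match is on the minus strand), each SoxOct match and each MORE match. The first 5 are sites without a SoxOct or MORE match, among them Sox21, the site with the highest mean Sox2 percentile. The other 3 hold a SoxOct match (Tns3 and Gm19935) or a MORE match (Gm11634), and sites are named by the coding gene they lie in or else by the nearest coding start.
Sox21 (chr14:118230584-118230784, plus strand): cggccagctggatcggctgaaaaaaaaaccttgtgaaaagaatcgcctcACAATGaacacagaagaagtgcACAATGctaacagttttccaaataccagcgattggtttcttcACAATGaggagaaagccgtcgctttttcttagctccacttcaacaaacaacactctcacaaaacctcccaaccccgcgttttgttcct
Pde9a (chr17:31436243-31436443, plus strand): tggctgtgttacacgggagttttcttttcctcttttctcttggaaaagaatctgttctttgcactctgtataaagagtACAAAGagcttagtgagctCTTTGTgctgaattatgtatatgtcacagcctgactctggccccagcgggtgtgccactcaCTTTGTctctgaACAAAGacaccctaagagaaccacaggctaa
Cd24a (chr10:43580820-43581020, plus strand): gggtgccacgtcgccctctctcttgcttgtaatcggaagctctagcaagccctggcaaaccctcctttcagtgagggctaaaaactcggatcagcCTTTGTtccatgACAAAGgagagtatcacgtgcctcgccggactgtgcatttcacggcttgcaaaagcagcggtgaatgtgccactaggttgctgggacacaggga
Dsp (chr13:38109143-38109343, plus strand): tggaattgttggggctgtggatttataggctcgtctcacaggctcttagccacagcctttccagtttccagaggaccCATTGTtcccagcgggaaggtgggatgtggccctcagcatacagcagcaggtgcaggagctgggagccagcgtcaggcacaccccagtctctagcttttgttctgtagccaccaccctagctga
Tet1 (chr10:62843752-62843952, plus strand): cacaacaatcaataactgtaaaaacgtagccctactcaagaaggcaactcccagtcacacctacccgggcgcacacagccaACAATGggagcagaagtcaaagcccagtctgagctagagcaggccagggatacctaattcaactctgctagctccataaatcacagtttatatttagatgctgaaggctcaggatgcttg
Tns3 (chr11:8147840-8148040, plus strand): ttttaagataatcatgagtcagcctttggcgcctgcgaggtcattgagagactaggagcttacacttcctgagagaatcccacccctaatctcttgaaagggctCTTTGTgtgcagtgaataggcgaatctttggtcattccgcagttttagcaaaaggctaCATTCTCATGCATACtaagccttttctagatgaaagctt
Gm19935 (chr8:90670864-90671064, plus strand): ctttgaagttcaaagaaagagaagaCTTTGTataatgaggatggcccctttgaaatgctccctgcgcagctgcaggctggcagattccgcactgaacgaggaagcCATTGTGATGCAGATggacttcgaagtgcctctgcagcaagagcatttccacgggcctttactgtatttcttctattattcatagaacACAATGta
Gm11634 (chr11:101604091-101604291, plus strand): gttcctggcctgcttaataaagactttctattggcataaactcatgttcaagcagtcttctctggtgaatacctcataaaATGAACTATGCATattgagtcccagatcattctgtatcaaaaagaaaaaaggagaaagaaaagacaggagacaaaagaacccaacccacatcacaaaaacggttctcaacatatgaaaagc

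A part of the sites lay close to a Sox2 day 1 summit, beyond the limit of 100 bp. The nearest Sox2 day 1 summit lay at a median of 32864 bp, with a range of 105 to 593573 bp. It lay at most 150 bp away at 17 sites, over 150 and up to 250 bp away at 12 and over 250 and up to 1000 bp away at another 12, so 41 of the 281 sites stood beside a day 1 summit and 240 had none within 1 kb. The 17 new common sites nearest to the limit, over 100 and up to 150 bp from a day 1 summit, had median day 5 scores of 15.2 (Oct4-SK), 12.6 (Oct6-SK) and 19.3 (Oct4defSox2-SK). On the other side of the limit, 46 retained common sites with a day 1 summit over 50 and up to 100 bp away had medians of 12.3, 9.88 and 28.8. The sites with the 3 highest mean Sox2 day 5 percentiles, at Sox21, Dnmt3a and Hs3st3a1, lay 192, 119 and 114 bp from a day 1 summit, and several results below are also given without the 41 sites.

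A pair of other site groups served for comparison. The 549 retained common sites had a summit in all 3 day 5 libraries and a Sox2 day 1 summit within 100 bp, and the 21870 other new sites had a summit in 1 or 2 day 5 libraries and no day 1 summit. Of the retained common sites, 428 were called in Oct4-SK on day 1, 357 in Oct4defSox2-SK and 182 in Oct6-SK. Among new sites, 16733 were seen only in Oct4defSox2-SK, 2970 only in Oct4-SK and 813 only in Oct6-SK, while 909, 352 and 93 were shared by Oct4-SK with Oct4defSox2-SK, by Oct6-SK with Oct4defSox2-SK and by Oct4-SK with Oct6-SK. The day 5 lists differ in length, with 5832 summits in Oct4-SK, 2673 in Oct6-SK and 21563 in Oct4defSox2-SK, and the day 1 Sox2 lists hold 15222, 3242 and 5794. A site can be shared by all 3 cocktails only if the short Oct6-SK list holds it.

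The new common sites had Sox2 scores between those of the other groups. A summit's score is the -log10 of its peak-calling p-value. In Oct4-SK the scores ran from 4.07 to 58.8 with a median of 12.7, against medians of 17.0 at the retained common sites and 8.19 at the other new sites. In Oct6-SK they ran from 4.29 to 68.4 with a median of 9.88, against 12.6 and 7.33. In Oct4defSox2-SK they ran from 4.18 to 170.4 with a median of 23.8, against 37.8 and 8.17. In each library the median of the new common sites fell between the other medians. Without the 41 sites beside a day 1 summit the medians were 12.7, 9.37 and 23.3, and the highest scores were 58.8, 28.7 and 91.5, so the highest values in Oct6-SK and Oct4defSox2-SK came from the 41.

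**Figure D1:**
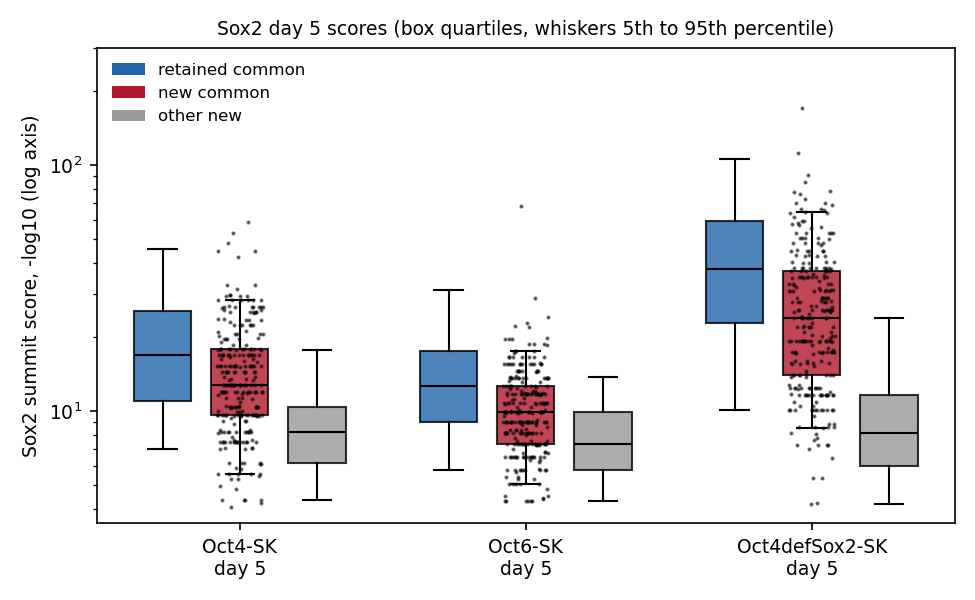
Sox2 day 5 summit scores (log axis) in each cocktail for the 549 retained common sites, the 281 new common sites (points are single sites) and the other new sites. Boxes are quartiles and whiskers the 5th and 95th percentiles, and the new common sites' medians of 12.7, 9.88 and 23.8 lie between those of the other groups in each library, a description since Sox2 calls chose the sites.

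Ranked within each library, the new common sites stood highest in Oct4defSox2-SK. Their median percentile among all summits of a list was 90.7 in Oct4defSox2-SK, 76.3 in Oct4-SK and 64.3 in Oct6-SK. Without the 41 sites it was 90.1, 76.3 and 57.5. The 90th percentile was reached or passed by 143, 62 and 25 of them, or 50.9%, 22.1% and 8.90%. In the same order of cocktails the shares were 74.5%, 41.9% and 28.6% at the retained common sites. At the other new sites they were 5.02%, 3.75% and 2.54%. A site's highest percentile came from Oct4defSox2-SK at 193 sites, from Oct4-SK at 68 and from Oct6-SK at 20. The order of these percentiles is also the order of the lists by length, and the part of list length was not tested. Across the 281 sites, Spearman's rank correlation between scores was 0.38 for Oct6-SK with Oct4defSox2-SK, 0.26 for Oct4-SK with Oct6-SK and 0.23 for Oct4-SK with Oct4defSox2-SK, a description over sites that were all selected for a call in every library. Summit positions of different cocktails differed by medians of 36 to 43 bp, and the summits of a site spanned a median of 64 bp and at most 187 bp.

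The site with the highest mean Sox2 rank lay at 6346 bp from the start of Sox21 (positive distances are downstream, negative upstream), which encodes a Sox-family repressor that counteracts Sox2 in neural progenitors. Its scores were 52.8 in Oct4-SK, 68.4 in Oct6-SK and 170.4 in Oct4defSox2-SK, and no POU library had a summit there. Its window shows 3 ACAATG cores in 1 orientation. The second, in an intron of Dnmt3a (a de novo DNA methyltransferase), scored 32.7, 22.9 and 111.6 and had an Oct4defSox2 day 1 summit of 8.97. The third, at -151470 bp from Hs3st3a1 (a heparan sulfate sulfotransferase), scored 25.1, 22.2 and 78.6 and had an Oct4 day 5 summit of 4.70. All 3 belong to the 41 sites beside a day 1 summit.

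Of the next 7 by rank, all but the Foxn3 site were over 1 kb from any Sox2 day 1 summit. A site in an intron of Pde9a (a cyclic GMP phosphodiesterase), 593573 bp from the nearest day 1 summit, scored 25.8, 19.7 and 42.9, in the same order of cocktails as above. It held 4 Sox cores and an Oct4 S151M summit of 49.2. A site in an intron of Rarb (a retinoic acid receptor) scored 23.4, 28.7 and 27.8 and was bound by Oct4defSox2 on day 1 with 55.0. A site at -29747 bp from Naa30 (an N-terminal acetyltransferase subunit) scored 21.2, 19.7 and 65.8 with no POU summit. A site 985 bp downstream of the start of Cd24a (a cell-surface glycoprotein) scored 23.4, 21.9 and 28.8 with an Oct4 day 5 summit of 8.10. A site at -68 bp from a start of Hmgb1 (a chromatin-associated HMG-box protein) scored 23.7, 15.6 and 58.2 with no POU summit. The Foxn3 site (a forkhead repressor gene) scored 28.4, 15.6 and 35.0, and a site in an intron of Smyd3 (a lysine methyltransferase) scored 29.4, 15.6 and 30.8. None of these 10 sites had an Oct4 day 1 summit.

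Binding of the POU factors, which the choice of sites did not use, placed the new common sites between the comparison groups. A further group, 3395 day 5 sites of 1 or 2 cocktails with a Sox2 day 1 summit, was not compared by intervals. Its day 1 shares were higher than those of the new common sites: 59.6% for Oct4defSox2, 32.5% for Oct4 S151M, 14.2% for Oct4 and 12.8% for Oct6 M151S. Its Oct4 shares on days 5 and 7, 8.01% and 4.59%, were lower, and its Oct4defSox2 day 5 share, 1.00%, was higher. On day 1, Oct4defSox2 had a summit within 100 bp of 131 of the 281 sites, or 46.6% (40.9 to 52.5), against 20.0% of all Sox2 day 5 sites. The share was 78.3% at the retained common sites and 12.0% at the other new sites, so that the new common sites differed from the former by -31.7 percentage points (interval -38.3 to -24.8) and from the latter by 34.6 points (28.8 to 40.4). Oct4 S151M had a summit at 60 sites, or 21.4% (17.0 to 26.5), against 11.2% of all sites, 49.2% of the retained common and 6.79% of the other new sites. Its differences were -27.8 points (-33.9 to -21.2) and 14.6 points (10.2 to 19.7). Against new sites of 2 cocktails its difference was 5.03 points (0.181 to 10.5). With Sox2 and POU scores of at least 10, the differences from the other new sites were 19.6 points (12.4 to 27.6) for Oct4defSox2 and 7.59 points (2.36 to 14.4) for Oct4 S151M. At positions moved 10 kb to either side of the new common sites, 0.356% had an Oct4defSox2 day 1 summit and 0.890% an Oct4 S151M summit. With each POU list cut to its 1038 strongest summits and the Sox2 lists to 2673 on day 5 and 3242 on day 1, which left 189 sites and changed both choices at once, the Oct4defSox2 day 1 differences were -3.49 (-6.94 to 0.320) and 0.798 points (-0.549 to 4.01), and those of Oct4 S151M were -0.990 (-2.87 to 1.11) and -0.353 points (-0.582 to 1.64), none excluding 0.

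Wild-type Oct4 was found at fewer of the sites. It had a summit at 18 sites on day 1 (6.41%, 4.09 to 9.90, against 3.93% of all sites), at 25 on day 5 (8.90%, 6.10 to 12.8, against 3.07%) and at 20 on day 7 (7.12%, 4.65 to 10.7, against 2.09%). At the retained common sites the shares were 24.6%, 16.2% and 11.8%, and at the other new sites 1.78%, 1.89% and 1.39%. The new common sites were different from the retained common sites by -18.2 points on day 1 (interval of the difference -22.6 to -13.3), -7.31 on day 5 (-11.7 to -2.48) and -4.72 on day 7 (-8.58 to -0.356). They were above the other new sites by 4.62 (2.3 to 8.12), 7.00 (4.20 to 10.9) and 5.72 points (3.25 to 9.35). Most of the other new sites were called only in Oct4defSox2-SK, where the Oct4 shares were 0.747%, 0.896% and 0.412%. At the 2970 new sites called only in Oct4-SK they were 5.52%, 5.15% and 4.95%. Against new sites of 2 cocktails the differences were 1.38 (-1.27 to 5.03), 2.62 (-0.519 to 6.70) and 2.61 points (-0.145 to 6.36), all with intervals that include 0. With scores of at least 10, the differences from all other new sites were 0.838 (-1.08 to 5.05), 2.78 (0.392 to 7.41) and 1.55 points (-0.364 to 5.76), and those from the retained common sites on days 5 and 7 were -4.68 (-9.56 to 0.850) and -4.79 points (-9.28 to 0.263), so that of these 5 only day 5 against the other new sites excluded 0. With a shared distance of 50 bp the day 5 and day 7 differences from the other new sites were 2.43 (0.499 to 6.24) and 3.26 points (1.15 to 7.22), and the day 1 difference from the retained common sites was -12.0 points (-17.4 to -6.20). Within the new common sites, the Oct4 share on day 5 minus that on day 1 was 2.49 points, with a paired interval of -0.993 to 6.14 that includes 0, and 3.17 points (0.548 to 6.75) at equal list lengths. Without the 41 sites beside a day 1 Sox2 summit, the Oct4 shares were 4.58% on day 1, 7.08% on day 5 and 6.25% on day 7 of 240 sites. At equal list lengths the day 1 difference from the other new sites turned to -0.988 points (-1.33 to 1.02), and those of days 5 and 7 were 1.24 (-0.527 to 4.84) and 1.69 points (-0.445 to 5.61). Against the retained common sites they were then -2.97 (-5.55 to -0.536), -0.456 (-3.70 to 3.46) and -0.0576 points (-3.63 to 4.22).

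**Figure D2:**
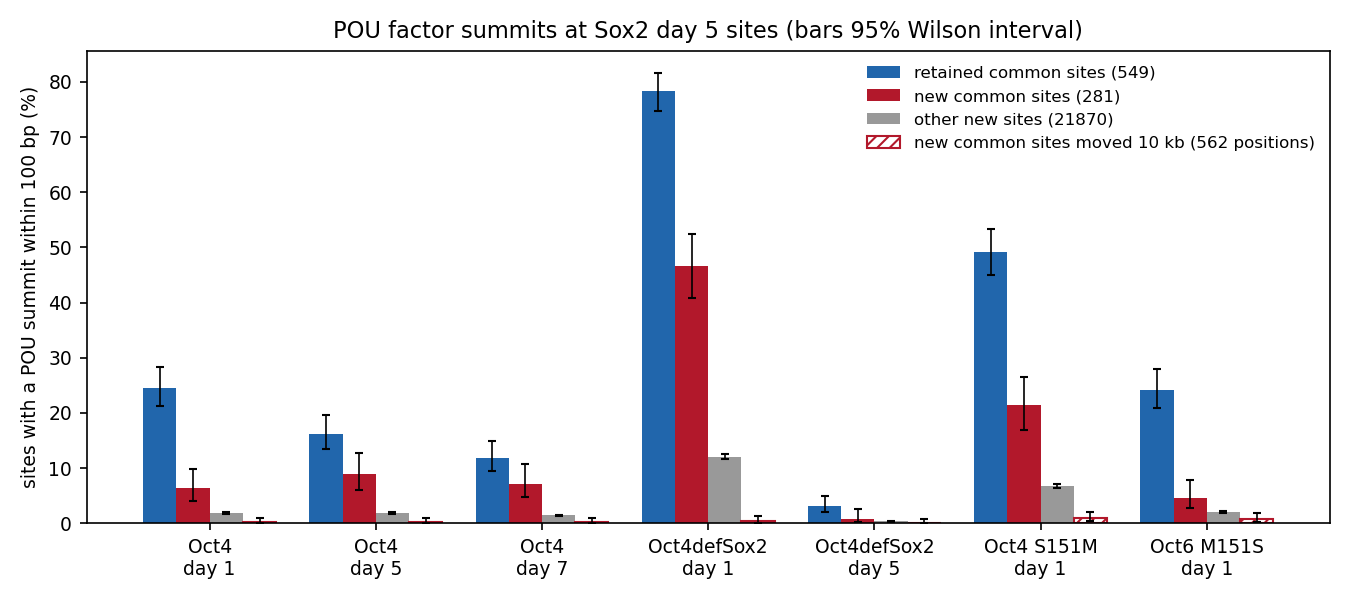
Share of sites (%) with a summit of each POU library within 100 bp, for the 549 retained common, 281 new common and 21870 other new sites, and for the new common sites moved 10 kb to either side. Error bars are 95% Wilson intervals, and the new common sites stand between the retained common and the other new sites in each library, from 46.6% for Oct4defSox2 on day 1 to 0.712% for Oct4defSox2 on day 5.

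The Oct4 mutant with a disrupted Sox2 dimer was called at many of the sites on day 1 and at few on day 5. On day 5, Oct4defSox2 had a summit at 2 of 281 sites, or 0.712% (0.195 to 2.56), against 0.460% of all Sox2 day 5 sites. That list holds 1038 summits, whereas the day 1 list holds 31070. Both sites, at Gm19935 and Mdga2, were among the 41 beside a day 1 Sox2 summit, and none of the other 240 had one, which allows a share of up to 1.58% by the Wilson interval. Oct4 exceeded Oct4defSox2 on day 5 by 8.19 points over the same sites (paired interval 5.15 to 12.0). The difference was 3.97 points (0.497 to 8.53) with scores of at least 10, and 2.15 points (-0.886 to 5.76), including 0, with a shared distance of 50 bp. On day 1 the order was opposite, with Oct4 minus Oct4defSox2 at -40.2 points (-46.0 to -34.1). On day 1, 115 sites had an Oct4defSox2 summit without Oct4, 2 had Oct4 without Oct4defSox2 and 16 had both. The day 1 lists hold 8216 summits for Oct4 and 31070 for Oct4defSox2, and with the POU and Sox2 lists both cut to equal lengths, which left 189 sites, the day 1 difference was -2.12 points (-5.31 to 0.257). With the same short lists the day 5 difference was 2.12 points (-0.903 to 5.68), so neither interval excludes 0 at equal list lengths.

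Oct6 M151S had a summit at 13 sites, or 4.63% (2.72 to 7.75), against 3.90% of all Sox2 day 5 sites, 24.2% of the retained common sites and 2.01% of the other new sites. The differences were -19.6 points (-23.8 to -15.0) and 2.62 points (0.706 to 5.75). With scores of at least 10 in every list they were -2.58 (-5.65 to 0.812) and 0.518 points (-0.0367 to 3.51), neither excluding 0. With a shared distance of 50 bp they were -11.4 (-16.0 to -6.63) and 0.775 points (-0.545 to 4.03), with 250 bp the second was 4.67 points (2.19 to 8.15), and at equal list lengths they were -5.87 (-9.39 to -2.28) and 0.140 points (-0.697 to 2.87). Against new sites of 2 cocktails the difference was -0.544 points (-2.85 to 2.76). This list reaches lower than the others, with its lowest score at 2.3 where theirs start at 4.00 or above. Restricted to scores of at least 4, a limit chosen after seeing the list, the difference from the other new sites was 0.60 points (-0.429 to 2.92). The summits at the new common sites had a median of 3.74, equal to that of the whole list, a median percentile of 55.1 and a highest value of 8.19.

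The 41 sites beside a Sox2 day 1 summit had a higher share with a summit in each of the 7 POU libraries than the 240 beyond 1 kb, and for 5 the interval of the difference excluded 0, the fifth being Oct4defSox2 on day 5 described above. Oct4 on day 1 was present at 17.1% of the 41 and 4.58% of the 240, a difference of 12.5 points (3.28 to 26.8), and Oct4 on day 5 at 19.5% and 7.08%, a difference of 12.4 points (2.34 to 27.2). Oct4defSox2 on day 1 was present at 63.4% and 43.8%, a difference of 19.7 points (3.11 to 34.0), and Oct4 S151M at 34.1% and 19.2%, a difference of 15.0 points (1.26 to 30.9). For Oct4 on day 7, at 12.2% and 6.25%, and Oct6 M151S, at 7.32% and 4.17%, the differences of 5.95 (-1.91 to 19.5) and 3.15 points (-2.69 to 15.4) include 0. The single Sox motif was present at 43.9% and 48.3%, a difference of -4.43 points whose interval, -19.8 to 11.9, includes 0. For the 240 alone, the Oct4defSox2 day 1 share differed by -33.5 points (-40.5 to -26.3) from common sites with a day 1 summit within 1 kb and by 33.1 points (27.0 to 39.5) from new sites of fewer cocktails.

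Counted by site, 122 of the 281 (43.4%) had no POU summit from any of the 7 libraries, 100 had 1 library, 31 had 2, 15 had 3 and 13 had 4 to 6, and none had all 7. The share without any POU summit was 14.8% at the retained common and 82.9% at the other new sites, differences of 28.7 (22.1 to 35.1) and -39.5 points (-45.2 to -33.6). Oct4defSox2 on day 1 was the only POU summit at 76 sites and Oct4 S151M at 13. Oct4 was present on at least 1 day at 39 sites (13.9%, against 33.5% of the retained common and 3.40% of the other new sites). It was present on days 1, 5 and 7 at 7 sites, and on day 5 without day 1 at 15. Of the 39, 28 also had an Oct4defSox2 day 1 summit. Ranked in their own lists, POU summits at the sites had median percentiles of 54.1, 45.2 and 64.8 for Oct4 on days 1, 5 and 7, 54.7 for Oct4defSox2 on day 1 and 52.1 for Oct4 S151M.

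The 13 sites with 4 or more POU libraries ranked between 17 and 275 of 281 by mean Sox2 percentile. The site at 146429 bp from the start of Gm19935 had Sox2 scores of 14.4 in Oct4-SK, 9.88 in Oct6-SK and 10.1 in Oct4defSox2-SK. Its POU scores were 21.3, 49.1 and 168.6 for Oct4 on days 1, 5 and 7, 86.1 and 7.36 for Oct4defSox2 on days 1 and 5, and 101.1 for Oct4 S151M, with the highest Oct4 score in the day 7 library. Its window holds a SoxOct match, CATTGTGATGCAGAT, with 1 mismatch, and a Sox2 day 1 summit in Oct4-SK lay 114 bp away. The site at 516595 bp from the start of Tns3 (a focal adhesion protein gene) had no day 1 Sox2 summit within 195648 bp. It had Sox2 scores of 17.9, 15.6 and 53.0, Oct4 scores of 17.0, 45.2 and 19.6, Oct4defSox2 on day 1 at 32.5 and Oct4 S151M at 158.5. In an intron of Ankrd6 (an ankyrin-repeat protein gene of Wnt signalling), Oct4 scored 9.06, 29.9 and 20.5, Oct4defSox2 58.8 on day 1, Oct4 S151M 71.0 and Oct6 M151S 3.74. At Mdga2 (a neuronal adhesion regulator), Oct4 scored 18.7 on day 1 and 23.8 on day 5, and Oct4defSox2 57.2 and 10.3.

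Oct4 S151M had the highest raw POU scores, which are not scaled between libraries. Its score was 405.2 at -13162 bp from the start of Slmap (a sarcolemma-associated protein gene) and 379.5 in an intron of Entpd1 (the ectonucleotidase CD39), the highest POU scores at any of the 281 sites. The Oct4 S151M list is also the longest, with 101170 summits, a median score of 19.5 and a highest score of 1235. Within that list, its summits at 60 of the sites had a median percentile of 52.1.

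**Figure D3:**
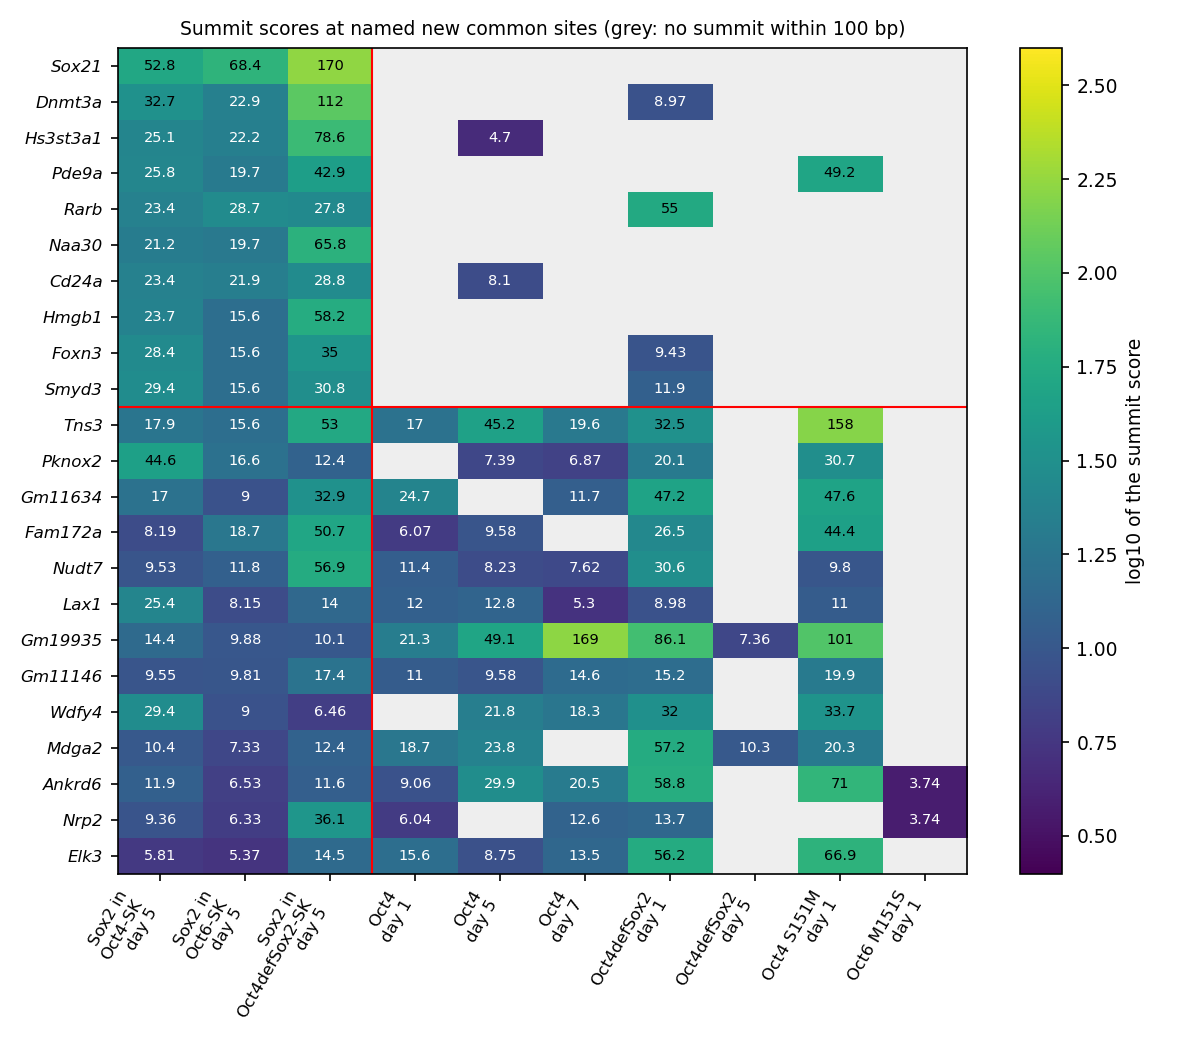
Summit scores (-log10 p, colour on a log10 scale) in the 3 Sox2 day 5 and 7 POU libraries at the 10 new common sites of highest mean Sox2 rank (above the red line) and the 13 with 4 or more POU libraries (below). Grey cells have no summit within 100 bp. The 10 highest sites have at most 1 POU summit each. Of all new common sites, 122 (43.4%) have a summit in no POU library and 100 (35.6%) in 1. The lower sites were chosen for their POU summits, so the contrast between the blocks follows from that choice. Among the lower sites, the Oct4 day 7 score at Gm19935 reaches 168.6.

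Sox elements were common under the sites. A single Sox motif, spelled CCATTGT or CCTTTGT and sought on both strands within 100 bp of the centre, was present at 134 of 281 sites, or 47.7% (41.9 to 53.5). The same share was 46.6% at the retained common sites, a difference of 1.06 points (-6.07 to 8.21), and 22.4% at the other new sites, a difference of 25.3 points (19.5 to 31.1). That difference was 13.9 points (6.03 to 21.9) with scores of at least 10 and 11.4 points (4.30 to 18.7) at equal list lengths. In windows 2 kb to either side of the new common sites it was 7.65%. The shorter core, CATTGT or CTTTGT, which the 7-letter motif contains and which was chosen after these windows were seen, was present at 232 sites, or 82.6% (77.7 to 86.6), against 81.4%, 50.8% and 25.6%. At 113 sites, or 40.2%, there were 2 or more cores, against 43.0% of the retained common sites, 16.1% of the other new sites and 3.91% of the flanking windows.

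Longer forms of the core are given as a description, since they were picked from a listing of short strings in these same windows. CATTGTTC was present at 29 sites (10.3%) against 0.178% of the flanking windows, which is 1 of 562, and CTTTGTTC at 34 (12.1%) against 1.60%. The retained common sites held these 2 strings at 9.29% and 13.7%, and the other new sites at 3.17% and 4.70%. Other forms in the listing were CTTTGTT, at 26.7% against 6.23%, and CTTTGTC, at 17.8% against 3.91%. Single Sox matches lay at a median of 31 bp from the centre with 47.4% of 171 matches within 30 bp (43.9% at the retained common sites, 39.2% at the other new sites and 40.8% in the flanking windows), against medians of 35 bp at the retained common sites, 40 bp at the other new sites and 42 bp in the flanking windows.

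**Figure D4:**
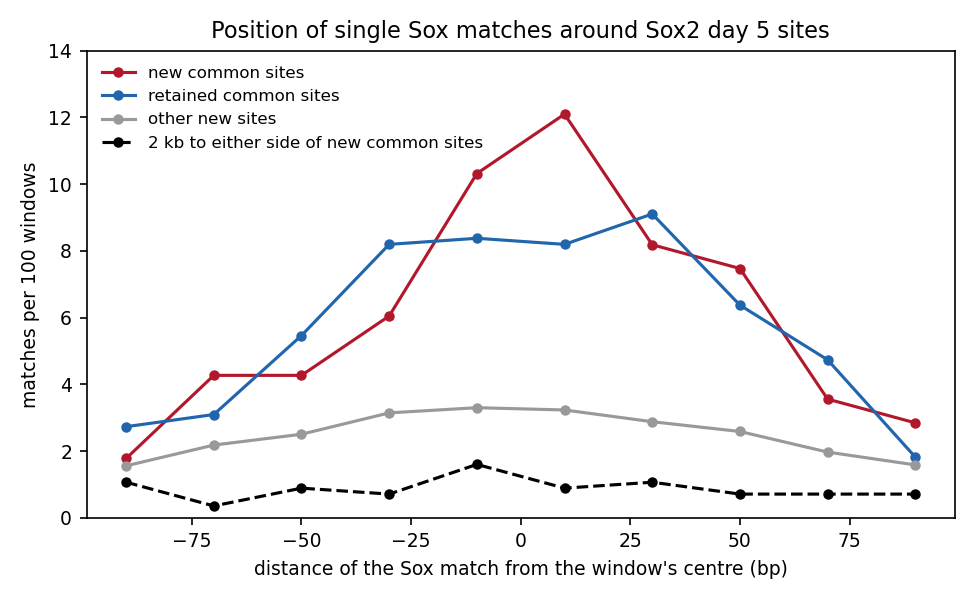
Position of single Sox matches, as matches per 100 windows in bins of 20 bp, against distance from the window's centre (bp). At the new common sites the density peaks in the bins beside the centre, at 12.1 and 10.3 matches per 100 windows, and falls to 1.78 and 2.85 in the outermost bins.

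Within the 281 sites, divided by mean Sox2 percentile into groups of 94, 93 and 94, the shares followed no single order. From the highest to the lowest group, the single Sox motif was present at 55.3%, 40.9% and 46.8%, Oct4defSox2 on day 1 at 43.6%, 54.8% and 41.5%, and Oct4 on any day at 10.6%, 12.9% and 18.1%. Their Wilson intervals overlap between the groups. Oct4 S151M was present at 14.2% of the sites with a single Sox motif and 27.9% of those without, a difference of -13.7 points (-22.9 to -4.15).

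New sites of a single cocktail held the Sox motif less often than those of 2 or 3. The single Sox motif was found at 21.0% of the 20516 sites in 1 cocktail, 43.5% of the 1354 sites in 2 and 47.7% of the 281 in all 3. The difference between 3 and 2 cocktails was 4.19 points (-2.16 to 10.6), which includes 0. Oct4defSox2 on day 1 followed the same order, at 10.6%, 33.4% and 46.6%, with 13.2 points (6.95 to 19.6) between 3 and 2 cocktails. For Oct4 on day 5 the shares were 1.60%, 6.28% and 8.90%, but the first pools 5.15% at sites in Oct4-SK only, 3.20% in Oct6-SK only and 0.896% in Oct4defSox2-SK only, and 16733 of its 20516 sites are of the last kind. Sites in fewer cocktails also had lower Sox2 scores, and the part of score in these orders was not tested.

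Few sites held an element for POU factors. A SoxOct match (the 15-letter composite element with up to 2 mismatches) was present at 9 sites, or 3.20% (1.69 to 5.97), against 5.83% of the retained common sites, 1.74% of the other new sites and 1.25% of flanking windows. Both differences, -2.63 points (-5.36 to 0.609) and 1.46 points (-0.0590 to 4.24), have intervals that include 0. With 1 mismatch more both excluded 0, at -5.99 (-11.1 to -0.401) and 4.17 points (0.497 to 8.79). The second also did so without the 41 sites beside a day 1 summit (1.69 points, 0.0435 to 4.80), with a shared distance of 250 bp (1.46, 0.0319 to 4.00) and with 1 summit per peak (1.91, 0.234 to 4.86). The MORE element (or its form with 1 more base, with up to 1 mismatch) was present at 3 sites, or 1.07%, and the octamer ATGCAAAT at 4, or 1.42%, against 1.07% and 1.60% of flanking windows. At the retained common sites these shares were 0.364% and 3.28%, and at the other new sites 0.663% and 1.33%. Of the 281 sites, 14 (4.98%) had any of these 3 elements, which can overlap each other and the Sox core. The share was 8.38% at the retained common and 3.45% at the other new sites. The differences, -3.40 (-6.69 to 0.402) and 1.53 points (-0.473 to 4.75), include 0.

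Where these elements occurred, POU summits were frequent. Of the 9 sites with a SoxOct match, 6 had Oct4 on some day, 7 had Oct4defSox2 on day 1 and 6 had Oct4 S151M, while 2, at Fundc1 and Maml3, had no POU summit. The SoxOct share was 15.4% among the 39 sites with Oct4 on any day and 1.24% among the 242 without, a difference of 14.1 points (5.68 to 28.5). Among the 131 sites with Oct4defSox2 on day 1 it was 5.34%, against 1.33% of the other 150, a difference of 4.01 points (-0.349 to 9.37). All 3 sites with a MORE match, at Gm11634, Arhgap18 and Ankrd6, had an Oct4 S151M summit, of 47.6, 127.5 and 71.0. The single Sox motif went the other way, being present at 40.5% of the sites with Oct4defSox2 on day 1 and 54.0% of those without, a difference of -13.5 points (-24.7 to -1.84). The Sox core did not differ beyond counting error, at 83.2% and 82.0%.

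Motifs of other factors were found at fewer sites. The AP-1 element TGACTCA was present at 30 sites, or 10.7% (7.58 to 14.8), against 14.9% of the retained common sites, 9.98% of the other new sites and 3.20% of flanking windows. The differences from the site groups were -4.26 (-8.73 to 0.716) and 0.694 points (-2.43 to 4.87), and the first was -5.51 points (-9.53 to -0.998) with a shared distance of 250 bp. The TEAD element ACATTCC was present at 16 sites (5.69%, against 6.92% of the retained common sites, 4.59% of the other new sites and 2.14% of flanking windows), with differences from the site groups of -1.23 (-4.48 to 2.6) and 1.10 points (-1.07 to 4.47) that include 0. Present at fewer were the KLF element (GGGTGTGGC or GGGCGTGGC) at 5 (1.78%, against 1.09%, 1.80% and 1.25%), the NFY element CCAATCA at 3 (1.07%, against 1.64% of the retained common, 2.5% of the other new sites and 1.60% of flanking windows) and the ETS element CCGGAAGT at 2 (0.712%, against none of the retained common sites and flanking windows and 0.393% of the other new sites). The CTCF motif was found at none, against 0.364% of the retained common sites, 0.640% of the other new sites and 1.25% of flanking windows. These letters' absence says nothing of the factor. No motif of the list was found at 115 sites, or 40.9%, against 38.1% of the retained common and 61.1% of the other new sites.

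**Figure D5:**
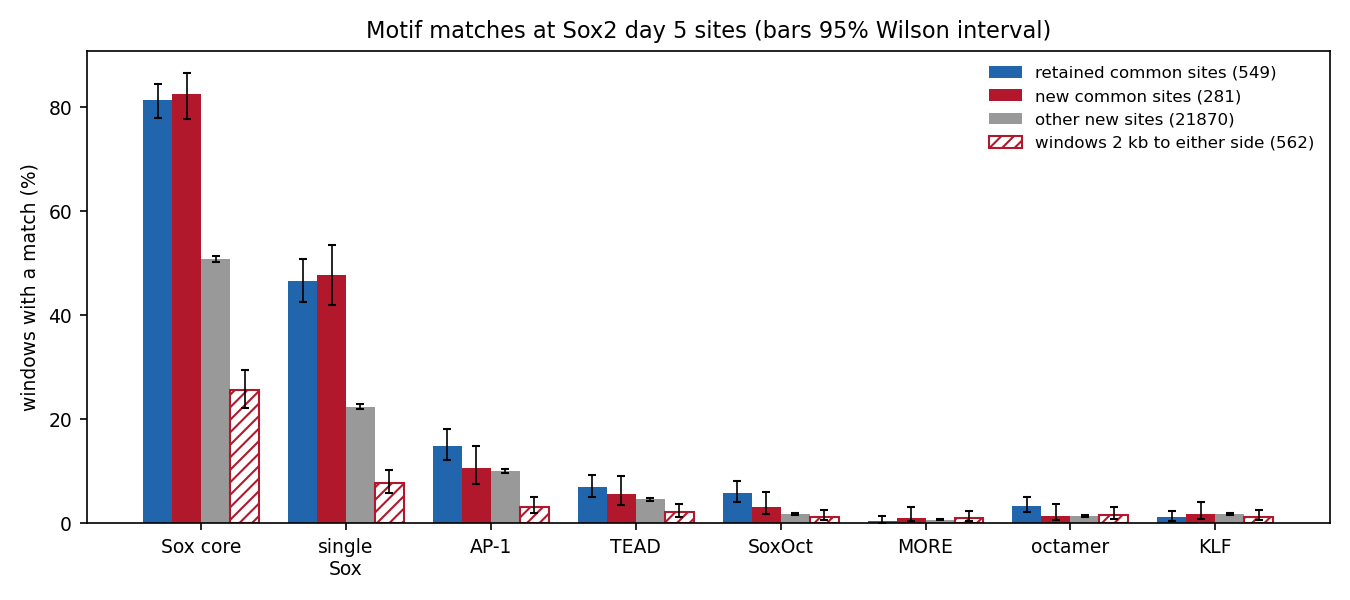
Share of 201 bp windows (%) with a match of each motif at the 549 retained common, 281 new common and 21870 other new sites, and 2 kb to either side of the new common sites. Error bars are 95% Wilson intervals, and the Sox core (82.6%) and the single Sox motif (47.7%) at the new common sites exceed the flanking windows (25.6% and 7.65%), while SoxOct, MORE and octamer matches stay at 3.20%, 1.07% and 1.42%.

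Most of the sites lay away from promoters. By the GENCODE annotation of mm10, 136 (48.4%) lay in introns of coding genes and 117 (41.6%) between genes. These shares were 45.5% and 43.7% at the retained common sites and 45.3% and 42.7% at the other new sites. Another 11 (3.91%) lay in introns and 4 (1.42%) in exons of noncoding genes, 11 (3.91%) in untranslated regions and 2 (0.712%) in coding exons. In that order the shares were 6.19%, 1.09%, 1.46% and 2.00% at the retained common sites and 5.83%, 1.25%, 3.27% and 1.58% at the other new sites. The median distance to a coding start was 32948 bp, against 53887 bp at the retained common and 36170 bp at the other new sites. A start of any annotated gene lay within 1 kb of 26 sites, or 9.25% (6.39 to 13.2), against 11.6% of all Sox2 day 5 sites. The shares were 7.47% at the retained common and 12.7% at the other new sites, differences of 1.78 (-2.02 to 6.18) and -3.43 points (-6.32 to 0.556). Against new sites of 2 cocktails the difference was -5.15 points (-8.62 to -0.812), and against the other new sites with a shared distance of 50 bp it was -6.46 points (-9.07 to -2.07), both excluding 0. The windows' median GC content was 46.3%, with quartiles of 42.3% and 50.7%, against medians of 43.3% and 45.3%.

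Of the 26 promoter sites, 19 lay within 1 kb of a coding start and 11 held 10 or more CpG. Besides Cd24a and Hmgb1, the highest by mean Sox2 rank was at Vit (vitrin, an extracellular matrix protein), 645 bp downstream of the start, with scores of 15.3 in Oct4-SK, 13.6 in Oct6-SK and 39.8 in Oct4defSox2-SK and an Oct4defSox2 day 1 summit of 9.37. A single Sox motif was present at 13 of the 26 promoter sites. Promoter sites were 6.11% of the sites with an Oct4defSox2 day 1 summit and 12.0% of those without, a difference of -5.89 points (-12.7 to 1.06). No POU library had a summit at 13 of the promoter sites.

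Among 35 genes of the pluripotency network, 3 had a new common site within 50 kb of a start, with 4 sites in all (1.42% of 281, against 0.199% of all Sox2 day 5 sites). A pair of sites lay at -39285 and -37627 bp from Fgf4, a growth factor gene that is a classic target of Sox2 and Oct4, and nearest to the start of its neighbour Fgf3. They scored 14.4, 6.53 and 10.1, and 10.0, 14.4 and 12.8, in the order used above, and had no POU summit. The site in an intron of Tet1, a 5-methylcytosine dioxygenase, scored 4.35, 5.77 and 44.9 with no POU summit. These are percentiles of 6.29, 18.1 and 97.7 in their lists, so the first lies near the floor. The site in an intron of Tet2, which encodes a related dioxygenase, scored 7.49, 10.8 and 17.4. It had Oct4 on day 1 at 13.8, Oct4defSox2 on day 1 at 33.4 and Oct4 S151M at 24.6, and lay 120 bp from a Sox2 day 1 summit.

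Of 16 Sox-family genes, Sox21 and Sox13 had a site within 50 kb of a start (0.712% of 281, against 0.192% of all Sox2 day 5 sites). The site of Sox13, which encodes a SoxD factor, lay in an intron and scored 7.86, 4.82 and 28.0 (percentiles of 38.3, 6.10 and 93.1) with no POU summit. Beyond that distance, a site lay in an intron of Sox6, 91600 bp from its start, with scores of 19.1, 14.6 and 18.5 and an Oct4defSox2 day 1 summit of 16.8, and the nearest coding starts of 2 others were Sox11, at -277467 bp, and Sox14, at -211019 bp. Of 24 epithelial genes, Dsp (desmoplakin, a desmosome protein) had a site at -42051 bp from its start, with scores of 48.1, 9.88 and 59.0, no POU summit and no Sox2 day 1 summit within 121205 bp. Of 11 AP-1 genes, Fosb (a member of the AP-1 complex) had a site at -17173 bp, with scores of 4.24, 12.1 and 30.9 (percentiles of 0.840, 77.3 and 94.6) and an Oct6 M151S summit of 3.27. Of 16 chromatin genes, Mbd3, a subunit of the NuRD complex, had a site 9773 bp downstream of its start, in the neighbouring gene Mex3d, with scores of 14.4, 11.2 and 30.9. The epithelial, AP-1 and chromatin panels thus had 1 site each (0.356%), against 0.157%, 0.0805% and 0.111% of all Sox2 day 5 sites. No site lay within 50 kb of a start among the 25 neural, 10 POU-family, 28 mesenchymal, 18 TGF-beta, 17 Wnt and 17 KLF-family genes, near which only 0.0690% to 0.180% of all Sox2 day 5 sites lay, so that these zeros carry little information on 281 sites. None lay within 10 kb of Sox2, Klf4, Pou5f1 or Pou3f1, the genes carried by the retroviruses.

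The sites were spread over the genome. Chromosome 11 held 23, chromosome 1 held 22 and chromosome 13 held 21, the X chromosome held 6 and the Y chromosome none. As shares of each chromosome's Sox2 day 5 sites these were 1.55%, 1.06%, 1.5% and, for the X chromosome, 1.89%. Only 7 neighbouring pairs lay within 10 kb of each other, the closest at Adamts6 at 416 bp. A pair on chromosome 17, 652 bp apart, lay at or beside ribosomal sequence. The site centred at base 39846538 falls in Rn18s-rs5, which RefSeq places at 39846354 to 39848202. Reads from the many ribosomal copies cannot be assigned to 1 place, so these sites are uncertain. Repeats marked in the reference covered more than 50% of the window at 14 sites (4.98%), among them the Rarb site, against 4.01% of the retained common and 10.0% of the other new sites.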

How the data were processed

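The 13 summit lists of the ChIP libraries were used, while the 3 input libraries and the peak tables of 2 libraries were not used here. The authors aligned reads to mm10 with Bowtie2 (2.2.5 in the submitters' processing notes), removed low-quality alignments and duplicates, and, by the paper, called summits with MACS2 at a fixed p-value. The Oct6 M151S list does not match the cutoff of the others, since 12934 of its 22804 scores are below 4. The reason is not known here, and whether its scores are on the same scale was not checked. Gene positions are from GENCODE. Each deposited score is the authors' -log10 p-value at the summit, not scaled between libraries, and the lists give no read depth. They hold 1038 to 101170 summits.

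Summits were merged by single linkage within 100 bp, and a POU summit within 100 bp of any summit of a site counted as binding. Motifs were sought on both strands of 201 bp windows of the RefSeq mm10 genome, and no summit lay past a chromosome end of that build. Shares carry 95% Wilson intervals, and differences Newcombe intervals, paired where the sites were the same. The members and lists were chosen with earlier results of these data known. Named sites were the 10 of highest mean Sox2 percentile, the first 3 in each class (Oct4 day 5, Oct4defSox2 day 5, SoxOct, promoter, over 100 kb from a coding start) and up to 4 per gene panel within 50 kb. Others were chosen after their values were seen. Scripts used Python 3.11.15, numpy 2.4.6, pandas 2.3.3 and samtools 1.23.1, and in simulated data they found all 1300 of 1300 planted motifs and covered the true difference in 94.8% of 2000 draws. The 12 alternative settings are given below.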

Additional observations from a re-analysis of the deposited data

Results flagged for a closer look

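Among merged sites off chromosomes 1 to 19, X and Y, which were not part of the comparisons, 2 held a Sox2 day 5 summit of all 3 cocktails and no Sox2 day 1 summit within 100 bp. Both lay on the same unplaced contig, and 48 merged sites lay off the chromosomes in all.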

How the results depend on the processing

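Each of the 31 differences, given below in percentage points against the retained common or the other new sites, was recomputed under up to 12 settings. Of 241 recomputed values, 186 kept their direction and whether the interval excluded 0, 23 kept their direction with an interval that no longer excluded 0, 10 kept it with one that newly did, 21 changed sign and 1, MORE against retained sites with 1 mismatch fewer, was 0. For 19 of the 21 neither interval excluded 0. The number of sites was 66.2% of 281 with a shared distance of 50 bp and 53.7% of it with scores of at least 10.

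The other 2 came with equal numbers of the strongest summits, which cut the POU lists to 1038, the Sox2 lists to 2673 and 3242 and the sites to 189: against other new sites, Oct4 day 1 was -0.988 and Oct4 S151M -0.353. Also there, SoxOct turned to -0.368 and MORE to -0.130 against other new sites, and octamer to 0.995 and single Sox to -5.39 against retained sites. With the same lists, against retained sites, Oct4 day 5 was -0.456, Oct4 day 7 -0.0576, Oct4defSox2 day 1 -3.49, Oct4defSox2 day 5 -1.91 and Oct4 S151M -0.990. Against other new sites, Oct4 day 5 was 1.24, Oct4 day 7 1.69, Oct4defSox2 day 1 0.798 and Oct6 M151S 0.140. Within the sites, Oct4 day 5 minus day 1 was 3.17, Oct4 minus Oct4defSox2 was 2.12 on day 5 and -2.12 on day 1.

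With 50 bp, Oct4defSox2 day 5 was -0.123 against retained and 1.42 against other new sites, Oct6 M151S 0.775 and promoters -6.46 against other new sites, and Oct4 minus Oct4defSox2 on day 5 was 2.15. Signs turned with 50 bp for MORE (-0.157 against retained, -0.165 against other new), octamer (-0.312 against other new), single Sox (-2.69) and promoters (-4.16) against retained, and Oct4 day 5 minus day 1 (-1.61). With 250 bp, MORE turned to -0.0498 against other new sites, SoxOct was 1.46 against other new and AP-1 -5.51 against retained sites. With scores of at least 10, Oct4 day 5 was -4.68, Oct4 day 7 -4.79, Oct4defSox2 day 5 -0.552 and Oct6 M151S -2.58 against retained sites, and Oct4 day 1 was 0.838, Oct4 day 7 1.55 and Oct6 M151S 0.518 against other new sites. Single Sox turned to -9.51 and promoters to -0.150 against retained, and AP-1 to -2.66 against other new sites. With 1 summit per peak, KLF turned to 0.0228 against other new sites, Oct4defSox2 day 5 was -1.74 and 0.792, and SoxOct 1.91 against other new sites. Without Sox2 day 1 summits within 1 kb SoxOct was 1.69 and Oct4defSox2 day 5 turned to -0.275 against other new sites. With 1 mismatch more SoxOct was -5.99 against retained and 4.17 against other new sites and MORE turned to -2.18 against retained sites, with 1 fewer MORE turned to -0.0274 against other new sites, and with windows of 50 bp to each side KLF turned to 0.431 against them. With Oct6 M151S scores of at least 4, chosen after seeing the data, Oct6 M151S was 0.60 against other new sites. The causes were not tested.

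No paired analysis was possible because each condition has 1 library, so libraries could not be paired by replicate. The paired intervals above pair sites. The lists differ in length and threshold and give no read depth, so weak binding below a list's threshold cannot be told apart from no binding.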
